A study of Drosophila melanogaster with 3 samples.

Results

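This account covers 50 transcription regulators of fly development, C2H2 zinc finger and BTB factors chosen by name from a fixed list, in the pupal wing of *Drosophila melanogaster*. Of the 50 genes, 47 had at least 1 probe set annotated to that gene alone, among 11982 named genes on the array. The genes *ttk*, *ab* and *crol* were not analysed here. Where a gene had several such probe sets, the one with the highest mean log2 signal stood for it.

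All samples belonged to 1 group, Oregon R pupae reared at 25 C and taken at about 80 h after puparium formation (APF), when the adult wing cuticle is being made and pigmented. They were aged by eye from the pigment of the wing, so the time is approximate, and their sex is not given in the sources used here. Each of 3 biological replicates was RNA from a pool of wings of 40 flies, hybridised to 1 Affymetrix array. No mutant, treatment or second stage was included, so the question open to a single gene was whether its signal exceeded that of genes of other organs.

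C2H2 zinc fingers are short folds held by a zinc ion between paired cysteines and histidines, and several in a row read a DNA sequence. A BTB domain joins proteins into pairs and recruits co-repressors, and in many fly factors it is coupled to zinc fingers or to a Pipsqueak DNA-binding domain. In the developing wing such factors set regions, veins, bristles and hairs, and others mark chromatin boundaries in most cells. The label did not cover every gene on the list: *pnr* encodes a GATA-type zinc finger protein and *lilli* an AF4/FMR2-type elongation factor, and neither is a C2H2 or BTB protein.

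A gene was called above the reference when its log2 signal exceeded the 95th percentile of 87 genes of antenna, eggshell and male accessory gland on the same array. This reference level was 6.53, 6.72 and 6.58 log2 units on replicates 1, 2 and 3. The test was limma's one-sided moderated test with Benjamini-Hochberg adjustment over all 11982 genes at a threshold of 0.05. By limma 0 of these 87 genes passed, and the definition of the level partly sets this. The median probe set signal was 59.7 to 73.3 on the linear scale, and log2 signals of any pair of arrays correlated across probe sets with Pearson's r of 0.914 to 0.918. Signals of different probe sets depend on their probes, so a higher signal in one gene than in another is no measure of more transcript.

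Of the 47 measured genes, 19 were above the reference (40.4%), beside 5540 of all 11982 named genes (46.2%). The share was thus close to that of genes in general, and the median difference from the reference was 0.022 log2 units for the 47 genes and 0.21 for all named genes. At an unadjusted limma p under 0.05, 20 of the 47 would have been called, beside 5702 of all 11982 named genes. All 19 were over the reference on each of the 3 arrays. RNA came from whole wings, so a low signal from fewer expressing cells and one from less RNA per cell cannot be told apart.

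**Figure D1:**
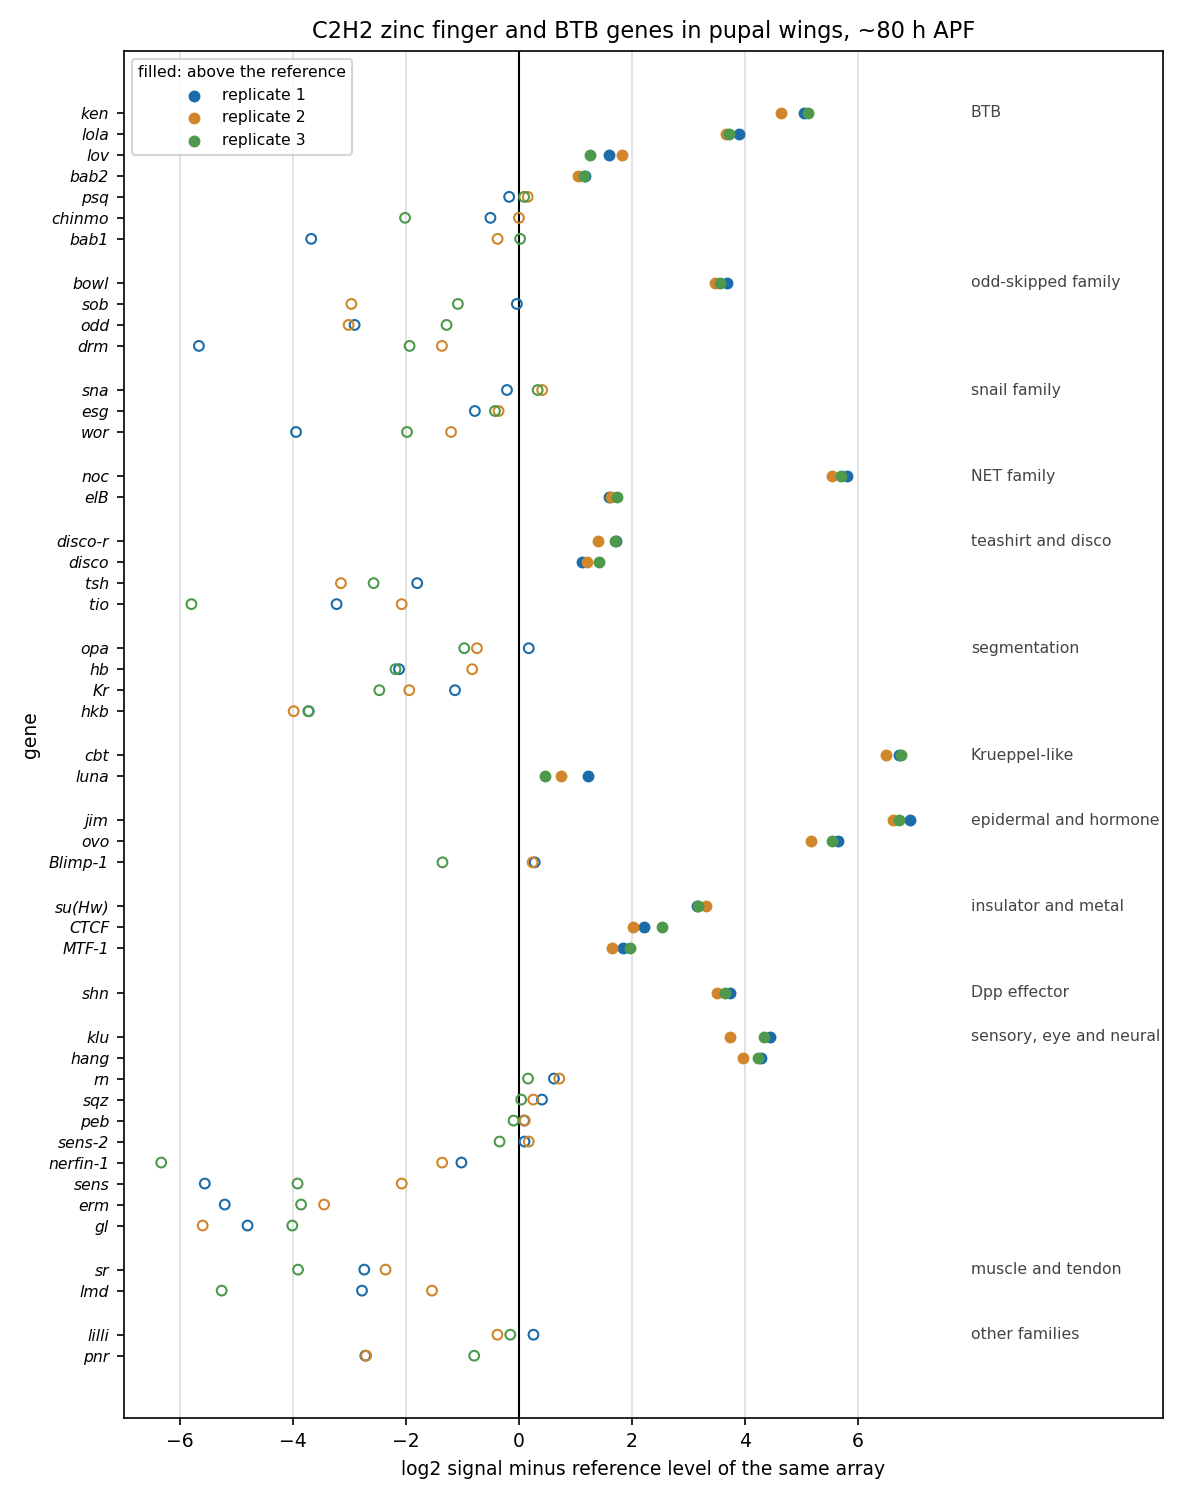
Distance of the log2 signal from its own array's reference level (horizontal axis) for the 47 measured genes, grouped by role, with 1 point per replicate array. Filled points mark the 19 genes called above the reference. All points of the called genes lie to the right of 0, the closest being *luna* on replicate 3 at 0.46.

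Marker genes of several cell types, lists that were also drawn up with earlier results of these data known, were set beside the reference, which 46.2% of all named genes exceeded. All 4 measured wing markers, *vg*, *nub*, *ap* and *bs*, were above the reference, with *vg* at 9.61 ± 0.14 and *nub* at 12.96 ± 0.05 log2 units (SD, n = 3). Among markers of other cell types, those above the reference were 3 of 4 glial, 2 of 4 sensory organ, 1 of 4 neuronal, 3 of 4 fat body, 1 of 4 muscle, 1 of 5 haemocyte and 1 of 2 tracheal ones. The part of these cells in the signal of any zinc finger gene was not tested.

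Of 3 measured genes grouped for roles in the epidermis or in hormone response, *ovo* and *jim* were called and *Blimp-1* was not (2 of 3, beside 46.2% of all named genes). *ovo*, whose Shavenbaby product directs cuticular hairs and denticles in the epidermis, had log2 signals of 12.17, 11.90 and 12.12 on replicates 1, 2 and 3, 5.45 ± 0.25 over the reference (limma adjusted p = 9.16e-05). *jim*, a C2H2 gene, read 13.46, 13.35 and 13.31 with the probe set that stood for it (6.76 ± 0.15 over the reference, limma adjusted p = 8.17e-05). The 3 arrays differed by at most 0.27 log2 units for these genes. *Blimp-1*, an ecdysone-induced repressor that times *ftz-f1* in the prepupa, gave 6.81, 6.96 and 5.22. It exceeded the reference on replicates 1 and 2 and lay 1.36 below it on replicate 3, and it was not called.

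Both Krüppel-like factors were above the reference, by different margins (2 of 2, beside 46.2% of all named genes). *cbt*, a fly relative of KLF10 and KLF11 that responds to ecdysone and TGF-beta signals, read 13.26, 13.22 and 13.35 (6.66 ± 0.15 over the reference, limma adjusted p = 8.17e-05). *luna*, related to KLF6 and KLF7, read 7.75, 7.46 and 7.04, which was 0.81 ± 0.38 over the reference (limma adjusted p = 0.0249). It was over the reference on all 3 arrays, by 1.22, 0.74 and 0.46. Leaving out replicate 1 or replicate 2 ended the call (limma adjusted p = 0.0762 and 0.0905).

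The NET family pair *noc* and *elB*, repressors that act in appendage and tracheal development, were both called, beside 46.2% of all named genes. *noc* read 12.34, 12.27 and 12.28 (5.69 ± 0.13 over the reference, limma adjusted p = 8.29e-05). *elB* read 8.12, 8.35 and 8.30 (1.65 ± 0.07, limma adjusted p = 0.000697). The arrays thus agreed within 0.23 log2 units for either gene with the probe sets used. The *elB* call was lost when its 3 probe sets were averaged (0.31 over the reference, limma adjusted p = 0.287) and with the median of all named genes plus 1 as reference (0.38, limma adjusted p = 0.0738). Both lie on the same chromosome arm with 3 protein-coding genes between them in the RefSeq gene order.

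Among BTB genes, 4 of 7 measured were above the reference, beside 46.2% of all named genes. *ken*, whose product represses targets of the JAK-STAT pathway, read 11.57, 11.37 and 11.69 (4.93 ± 0.25 over the reference, limma adjusted p = 0.000107). *lola*, a regulator of axon guidance with many alternative zinc finger ends, read 10.43, 10.39 and 10.29 with its highest probe set (3.76 ± 0.13, limma adjusted p = 0.000116). *lov*, known from larval and adult behaviour, read 8.12, 8.54 and 7.84 (1.56 ± 0.28, limma adjusted p = 0.00202). Each of the 3 genes was over the reference on every array.

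The neighbouring paralogs *bab1* and *bab2*, which act in leg segments, ovary and abdominal pigment, had different calls. *bab2* read 7.71, 7.76 and 7.73, a narrow range 1.12 ± 0.07 over the reference (limma adjusted p = 0.00213). That call depended on the reference: *bab2* lay at -0.14 with the median of all named genes plus 1, and did not pass when more than 1 log2 unit was required (limma adjusted p = 0.494). *bab1* read 2.85, 6.34 and 6.60, so that it was at the reference on replicate 3 and far below it on replicate 1, and it was not called. No other protein-coding gene lies between them. The probe sets of the paralogs differ, and the difference between them was not tested.

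*psq*, a Pipsqueak-domain protein of oogenesis and chromatin silencing that lies next to *lola*, read 6.36, 6.87 and 6.67. These values straddled the reference (0.022 ± 0.17, limma adjusted p = 0.859). *chinmo*, a temporal identity factor of neurons, read 6.02, 6.72 and 4.56 with its highest probe set. None of its 3 probe sets exceeded the reference on any array.

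In the odd-skipped family, which acts in leg joints and gut, 1 of 4 genes was called, beside 46.2% of all named genes. *bowl* read 10.21, 10.20 and 10.14 (3.57 ± 0.10 over the reference, limma adjusted p = 0.000119). The others were below the reference on every array. *odd* read 3.62, 3.70 and 5.29, *sob* 6.49, 3.75 and 5.49, and *drm*, whose small product frees Bowl from its inhibitor Lines, 0.86, 5.36 and 4.64. *sob* lies beside *odd*, and 1 protein-coding gene lies between *sob* and *drm*, whereas 32 protein-coding genes separate *odd* from *bowl*.

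Both genes of the disco pair, needed for ventral appendages and the optic lobe, were called, and the teashirt pair of trunk and proximal appendage factors was not (2 of 4 genes, beside 46.2% of all named genes). *disco* read 7.64, 7.93 and 8.001 (1.25 ± 0.16 over the reference, limma adjusted p = 0.00215). Its adjacent paralog *disco-r* read 8.25, 8.11 and 8.28 (1.60 ± 0.18, limma adjusted p = 0.00115). With these probe sets every array was at least 1.11 over its reference. With the median of all named genes plus 1 as reference neither passed (*disco* -0.019, *disco-r* 0.34 with a limma adjusted p of 0.116). *disco* did not pass when more than 1 log2 unit was required (limma adjusted p = 0.213), and *disco-r* lay at -0.19 when its probe sets were averaged. *tsh* read 4.73, 3.57 and 4.001 and *tio* 3.30, 4.64 and 0.77, all at least 1.80 below the reference.

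The 3 snail family genes and the 4 segmentation genes were not called, as were 53.8% of all named genes not. Of these family genes 0 had an unadjusted limma p under 0.05, beside 5702 of all 11982 named genes. *esg*, which keeps imaginal cells diploid, read 5.75, 6.36 and 6.15, below the reference on each array by 0.36 to 0.78. *sna*, known from mesoderm formation, read 6.32, 7.13 and 6.91 and was over the reference on replicates 2 and 3 (0.17 ± 0.34, limma adjusted p = 0.418). *wor*, a neuroblast factor, read 2.58, 5.52 and 4.59. None of the 3 exceeded the reference on all arrays.

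Of the segmentation genes, the gap genes *hb* and *Kr* had log2 signals of 4.90 ± 0.86 and 4.76 ± 0.65 (SD, n = 3). The terminal gene *hkb* read 2.81, 2.73 and 2.84, the closest agreement among genes that were not called. *opa*, a pair-rule gene of the Zic family, read 6.70, 5.98 and 5.61, over the reference on replicate 1 alone. The segmentation genes therefore gave no signal that held on all 3 arrays.

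The 3 factors of chromatin boundaries and metal response were called (3 of 3, beside 46.2% of all named genes). *su(Hw)*, an insulator protein of the gypsy element, read 9.68, 10.03 and 9.75 (3.21 ± 0.08 over the reference, limma adjusted p = 0.000141). *CTCF*, also an insulator protein, read 8.74, 8.73 and 9.11 (2.25 ± 0.26, limma adjusted p = 0.000645). *MTF-1*, which activates metallothionein genes, read 8.38, 8.36 and 8.53 (1.81 ± 0.16, limma adjusted p = 0.000735). Each was at least 1.64 over the reference on every array with these probe sets. The other 2 *CTCF* probe sets were not called, and *CTCF* lay at -1.41 when its 3 were averaged.

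*shn*, the partner of Smad proteins that represses *brk* in response to Dpp, read 10.26, 10.23 and 10.22. This was 3.63 ± 0.11 over the reference (limma adjusted p = 0.000119). The SD of 0.021 was the lowest among the 47 genes. The call rested on a probe set of the _s_at type, which can bind more than 1 transcript. Without such probe sets *shn* lay 3.20 below the reference (value -3.20).

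A group of 10 genes was placed under sensory organs, eye and nervous system, and it includes the wing pouch and tarsus factor *rn*. Of these 10, 2 were called, beside 46.2% of all named genes. *klu*, an EGR-related factor of bristle precursors and neuroblasts, read 10.97, 10.46 and 10.91 (4.17 ± 0.37 over the reference, limma adjusted p = 0.00022). *hang*, named for its part in ethanol tolerance, read 10.82, 10.68 and 10.80 (4.16 ± 0.18, limma adjusted p = 0.000113). Both stood at least 3.74 over the reference on each array.

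The other 8 included 4 genes close to the reference. *rn*, a factor of the wing pouch and tarsus, read 7.15, 7.43 and 6.74, over the reference on all 3 arrays by 0.50 ± 0.30 without passing (limma adjusted p = 0.0609). *sqz*, which specifies neurons of the Apterous group, read 6.94, 6.97 and 6.61 (0.23 ± 0.18, limma adjusted p = 0.203). *peb*, the Hindsight factor of trachea, amnioserosa and eye, read 6.62, 6.82 and 6.48 (0.03 ± 0.11, limma adjusted p = 0.804). *sens-2* read 6.63, 6.89 and 6.23 and was over the reference on 2 of 3 arrays.

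The remaining 4 were below the reference on every array. *sens*, which fixes the fate of sensory organ precursors, including those of the wing margin, read 0.97, 4.64 and 2.65. *nerfin-1*, of early neuronal differentiation, read 5.51, 5.36 and 0.24, and the last value set its SD of 3.001, the highest among the 47 genes. *erm*, of neural progenitors, and *gl*, of photoreceptors, averaged 2.43 ± 1.01 and 1.80 ± 0.72 log2 units (SD, n = 3). None of these genes was within 1 log2 unit of its reference on any array.

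Neither muscle nor tendon factor was called (0 of 2, beside 46.2% of all named genes, with 0 at an unadjusted limma p under 0.05). *lmd*, of myoblasts, read 3.75, 5.18 and 1.31, and *sr*, of tendon cells, read 3.79, 4.36 and 2.66. The same held for both genes outside the C2H2 and BTB families. *pnr*, a selector of the dorsal midline of the thorax, read 3.81, 4.02 and 5.78. *lilli* read 6.79, 6.34 and 6.42 and was over the reference on replicate 1 alone.

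Probe sets of 1 gene often differed. Of the 47 genes, 11 had more than 1 probe set, and 7 of these (63.6%) had both called and uncalled ones when all 13647 single-gene probe sets were tested, of which 42.8% were called. Among all 1094 genes with several probe sets the share was 37.1%. *jim* was the gene with every probe set called: its other 2 averaged 10.93 ± 0.13 and 9.76 ± 0.09. *rn*, *chinmo* and *lilli* had none called.

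*lola* had 15 probe sets, of which 9 were called. Their mean log2 signals ran from 7.52 to 10.37 among the called ones and from 3.52 to 7.07 among the other 6. The lowest probe set was steady on the arrays, at 3.56, 3.38 and 3.63, whereas another uncalled one read 4.34, 7.08 and 6.51. The annotation used here does not tie these probe sets to single *lola* isoforms.

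In the other 6 genes with mixed probe sets, 1 probe set was called. The second *klu* probe set averaged 5.91 ± 0.43, below the reference on each array, and the second *shn* probe set 3.42 ± 1.35. The other *CTCF* probe sets averaged 4.23 ± 1.58 and 2.43 ± 2.45, and those of *elB* 7.02 ± 0.26 and 5.41 ± 1.61. The second probe sets of *disco-r* and *luna* averaged 4.57 ± 1.38 and 5.88 ± 1.42. When the probe sets of a gene were averaged, *CTCF* and *disco-r* were below the reference (-1.41 and -0.19), and *shn*, *elB* and *luna* were over it without a call (0.24, 0.31 and 0.06).

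**Figure D2:**
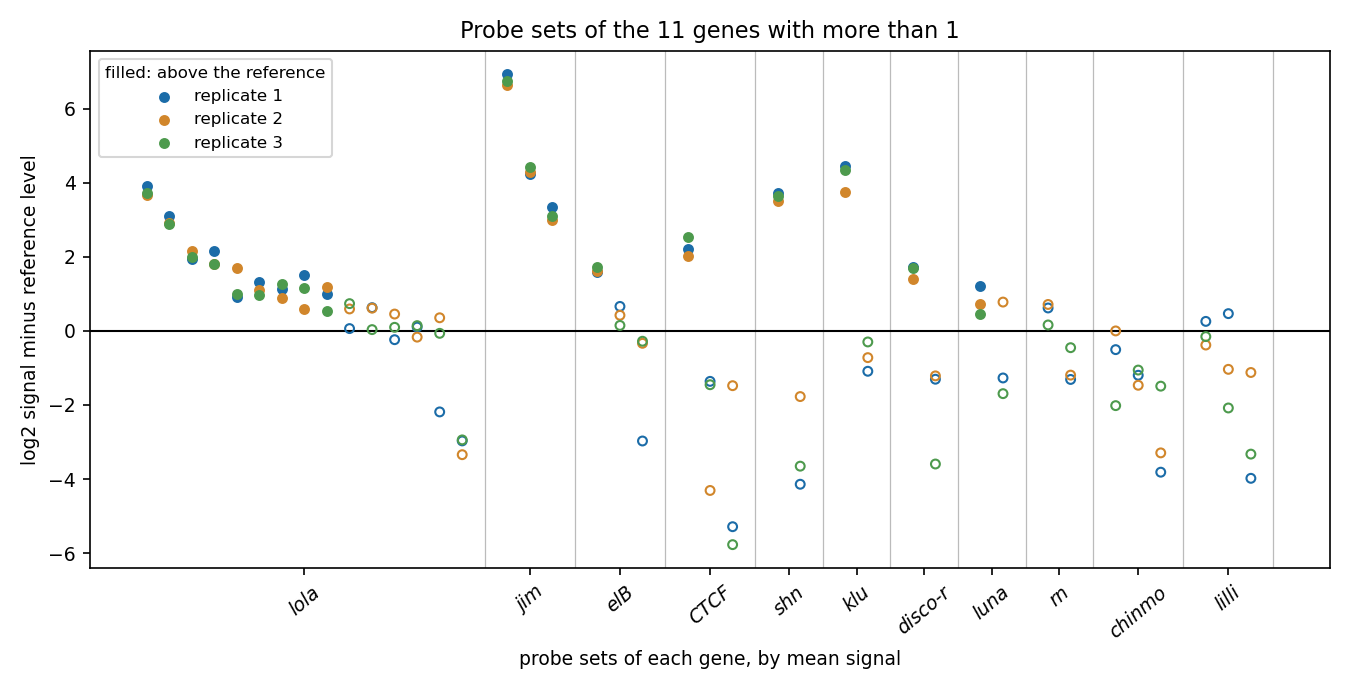
Distance of the log2 signal from the reference level (vertical axis) for every probe set of the 11 genes that had more than 1, with 1 point per replicate array and filled points for called probe sets. All 3 *jim* probe sets lie over the line, 9 of 15 *lola* probe sets were called, and *CTCF*, *shn*, *klu*, *disco-r*, *luna* and *elB* each have 1 called probe set.

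The number of probe sets moved with the calls. Of 36 genes with 1 probe set, 11 were called (30.6%, beside 45.5% of all named genes with 1), and of 11 genes with several, 8 were called (72.7%, beside 53.9%). Taking the highest probe set gives such a gene more chances of a call. The part of this rule in these shares was not tested. With the mean of probe sets, 14 of the 47 genes were called (29.8%, beside 44.7% of all named genes).

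The spread between replicates is part of the test, so called genes tend to have a low one by construction, and it is given here as a description. The SD between arrays had a median of 0.096 log2 units over the 19 called genes, with the range 0.021 to 0.36, beside 0.16 over all 5540 called genes. Over the 28 genes not called the median SD was 0.86, with 11 genes above 1 (39.3%), beside 0.76 and 36.9% for all named genes not called. Some genes not called varied as little as called ones, such as *hkb* (SD 0.058), *peb* (0.17) and *sqz* (0.20). Replicate 3 was the lowest array for 13 of the 28 genes not called, beside 2702 of all 6442 named genes not called. Among the 19 called genes replicate 2 was lowest for 9 and replicate 3 for 6. Over all 5540 called genes these arrays were lowest for 1860 and 2170. No order among genes is read from signals below the reference.

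**Figure D3:**
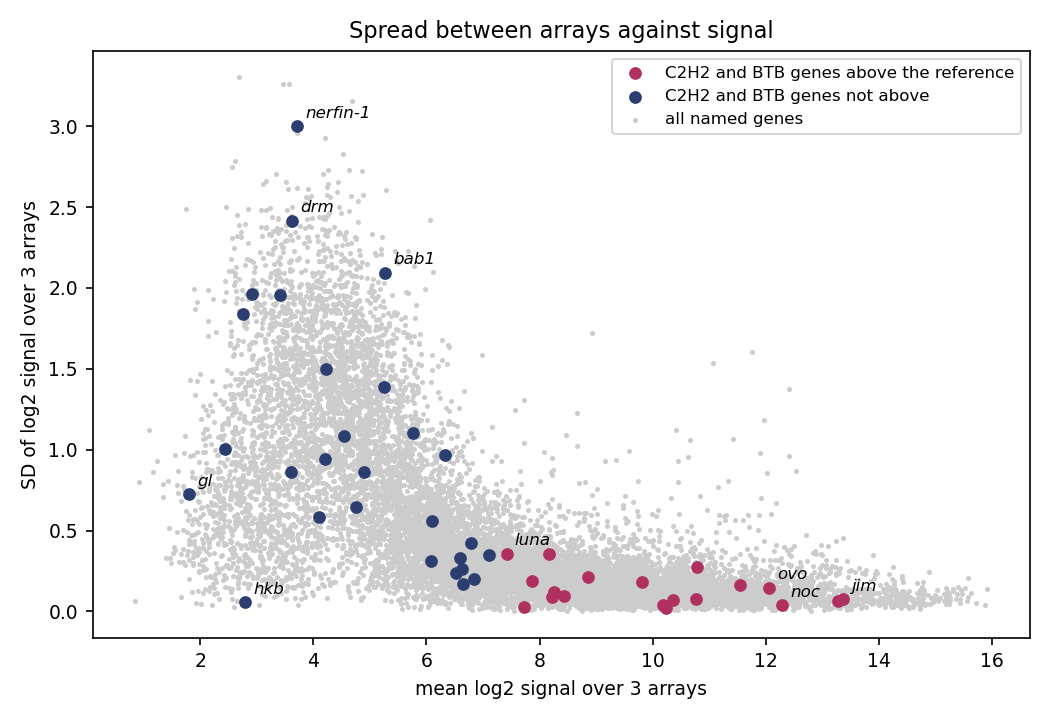
SD of the log2 signal over 3 arrays (vertical axis) against its mean (horizontal axis). Shown are the 19 called listed genes (red), the 28 not called (blue, *pnr* and *lilli* included) and all named genes (grey). Called genes have SDs of at most 0.36, and *nerfin-1*, *drm* and *bab1* lie near the upper edge of the grey cloud at low signal.

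The 47 genes, with 40.4% above the reference and a median of 0.022 log2 units over it, were set beside further C2H2 and BTB genes from outside the list. Of 52 of those measured, 32 were above the reference (61.5%), with a median of 1.32 log2 units over it. The difference between these shares was not tested, since both lists were drawn up by hand. The genes named from that list were taken by signal, which between probe sets gives no order of transcript. The called ones were *salm*, a wing vein and sensory organ factor (12.98 ± 0.04), *gfzf*, whose zinc fingers are of the FLYWCH and not the C2H2 type (11.46 ± 0.05), *ci*, the effector of Hedgehog signals (11.07 ± 0.21), the insulator gene *Cp190* (11.06 ± 0.19), *fru* (10.79 ± 0.23), *lolal* (10.79 ± 0.20), *l(3)neo38* (10.42 ± 0.09) and *Trl*, the GAGA factor (10.35 ± 0.26). The uncalled ones, all below the reference, were *Kah* (2.38 ± 0.52), *topi*, a testis factor (2.61 ± 0.35), *ham* (4.06 ± 0.75) and *pad* (4.12 ± 0.74).

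The count of called genes followed the reference and the call rule, as did that of all genes. With the 99th percentile as reference 18 of 47 were called (38.3%, beside 40.2% of all named genes), and with the median of all named genes plus 1 log2 unit 13 were (27.7%, beside 32.9%). A reference of eggshell and accessory gland genes without the odorant receptors gave 18 (38.3%, beside 42.1%), odorant receptor genes alone 20 (42.6%, beside 47.6%) and 142 non-fly controls 21 (44.7%, beside 49.9%). Quantile normalization and limma-trend each gave 19 (40.4%, beside 46.3% and 46.7%), and log2(signal + 32) gave 20 (42.6%, beside 47.1%). Counting genes over the reference on all 3 arrays with no model gave 21 (44.7%, beside 48.8%), and asking for more than 1 log2 unit gave 15 (31.9%, beside 36%). Without _s_at, _x_at and _a_at probe sets 11 of 33 were called (33.3%, beside 39.7%). Without replicate 1, 2 or 3 the counts were 18, 18 and 19 (38.3%, 38.3% and 40.4%, beside 43.2%, 44.4% and 43.6%). With the fit limited to genes over the median signal, all 21 tested were called (100%, beside 98.4%). The filter largely sets this outcome, since the median named gene already lay 0.21 log2 units over the reference. The share of the listed genes was below that of all named genes in 15 of 16 alternatives, which share the same arrays and are not independent. The listed genes in these shares include *pnr* and *lilli*, which were called in no setting.

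Most single calls held. Of the 19 called genes, 11 were called in each of the 16 alternatives that gave them a value: *jim*, *cbt*, *ovo*, *noc*, *ken*, *lola*, *bowl*, *klu*, *su(Hw)*, *MTF-1* and *hang*. Among these, *cbt*, *ovo*, *bowl*, *su(Hw)*, *MTF-1* and *hang* had no value without _s_at, _x_at and _a_at probe sets. Of the 28 not called, 26 were called in no alternative, and the exceptions were *rn*, called in 5, and *sqz*, called in 3. For both, these include the fit limited to genes over the median signal, where the filter largely sets the call. With the non-fly controls as reference, *rn* lay 1.05 over it (limma adjusted p = 0.0148) and *sqz* 0.79 (limma adjusted p = 0.0326).

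**Figure D4:**
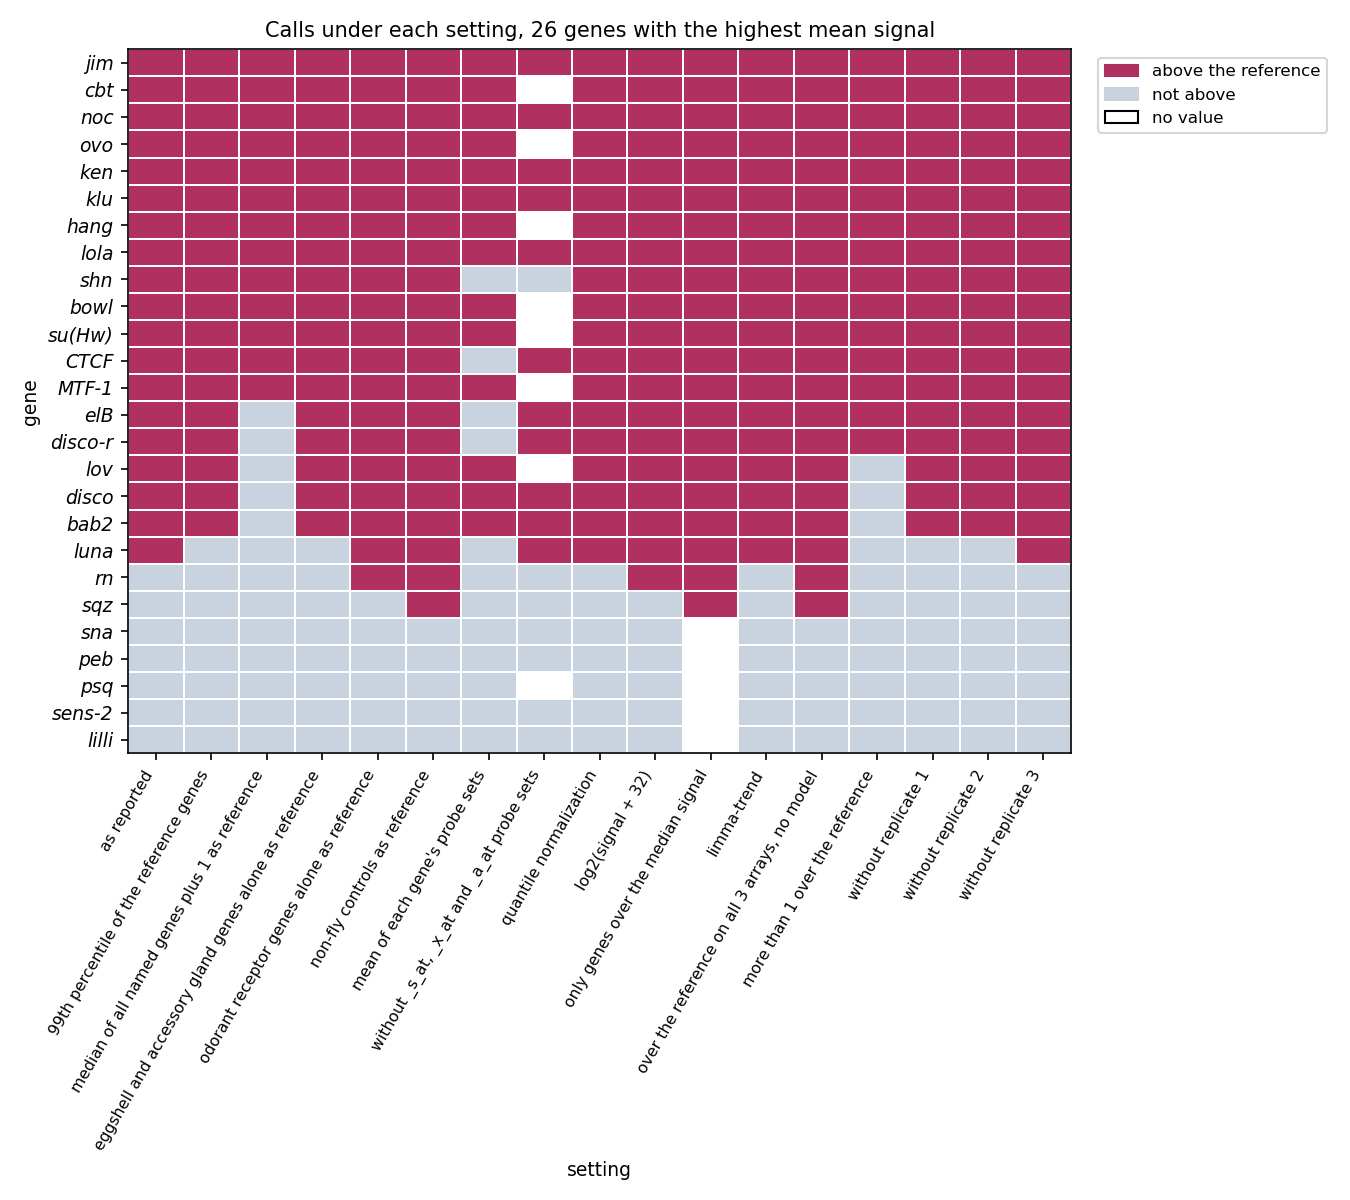
Calls of the 26 genes with the highest mean signals (rows) under the reported setting and 16 alternatives (columns), red for above the reference, grey for not above and white for no value. The upper rows are red wherever a value exists, *luna* changes in 7 alternatives, and *rn* and *sqz* are red in 5 and 3.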

How the data were processed

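The deposited table holds linear intensity values (probe set signals) of 18952 probe sets on 3 arrays. The tools MAS5 and RMA are named in the submitters' processing notes, their roles and versions are not. On replicate 1 the deposited intensities averaged 500.0 after 2% was trimmed from either end, a feature of MAS5 scaling. This mean was not computed for replicates 2 and 3. Labelled cRNA came from 5 ug of total RNA, per the labels' protocols. The genome build is not given in the sources used here. No further normalization was applied to the log2 signals. Platform annotation gave a single symbol for 13647 probe sets, several for 402 and none for 4720, beside 183 controls, and symbols were checked against the RefSeq gene table (13544 found, 0 changed). Gene order was read from that table (Release 6), without coordinates.

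The reference level used 56 odorant receptor genes and 31 eggshell or accessory gland genes. The limma package (version 3.58.1, R 4.3.3) with lmFit and eBayes fitted log2 signal minus this level over all named genes. Its variance prior had an SD of 0.323 at 1.52 degrees of freedom. On simulated data at 11982 genes, 74% of 50 genes set 1 log2 unit over the level were recovered. Of 50 genes set 2 over it, 100% were recovered. These rates hold for the simulated spread alone. The number of arrays limits the precision. Tables and figures used Python 3.11.15, pandas 2.3.3, numpy 2.4.6 and matplotlib 3.10.9. The 50 genes and all lists were chosen with earlier results of these data known. All 50 genes could be named in the text. From the further C2H2 and BTB list the 8 called genes with the highest and the 4 uncalled genes with the lowest signals were named. For cell types, at most the first 3 of each marker list could be named with values. All 4 wing markers are named.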

Additional observations from a re-analysis of the deposited data

How the results depend on the processing

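No paired analysis was possible because all arrays form 1 group. The count of 19 called genes stayed between 13 and 21 in the other 15 alternatives and was 11 of 33 measured without _s_at, _x_at and _a_at probe sets, where fewer genes were tested. It was 18 or 19 without each replicate in turn. With the median of all named genes plus 1 as reference, 13 genes were called, 4 genes instead of 7 had disagreeing probe sets, and the further C2H2 and BTB genes numbered 21 instead of 32. There *bab2* (-0.14), *luna* (-0.46) and *disco* (-0.019) fell below the reference. With the mean of probe sets *CTCF* (-1.41) and *disco-r* (-0.19) did, and without _s_at, _x_at and _a_at probe sets *shn* did (-3.20). Requiring more than 1 log2 unit over the reference removed *lov*, *disco*, *bab2* and *luna*. Quantile normalization and limma-trend changed no call among the 47 genes. Among genes not called, 10 crossed the level in at least 1 alternative without a call. Signal near background limits the genes between *luna* and *esg*.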

Other observations

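A pair of probe sets annotated to a listed gene and to a second gene were left out of the calls. The one shared by *shn* and *Cyp6v1* read 10.50, 10.97 and 10.60 log2 units on replicates 1, 2 and 3, over the reference on all 3 arrays, next to 10.24 ± 0.02 (SD, n = 3) for the _s_at probe set of *shn* alone. The one shared by *pre-lola-G* and *lola* read 7.04, 6.87 and 6.43, over the reference on 2 of 3 arrays.

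The genes next to the called factors were also set beside the reference. Neighbours that were themselves among the 47 genes, such as *disco* and *disco-r*, were left out. Of the other measured protein-coding genes adjacent to the 19 called factors, 10 of 24 were called (41.7%). Of those adjacent to the 28 uncalled ones, 13 of 44 were called (29.5%), beside 46.2% of all named genes. These shares were not tested.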
